A study of Mus musculus with 12 samples.

Results

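Angiotensin and endothelin genes were examined in RNA-seq libraries of the left ventricle from 16-week-old mice. The set holds 8 genes, chosen by name and matched to the rows of the count table by Ensembl identifier, of 26921 genes in all: Agt, Ace, Agtr1a, Nr3c2, Edn1, Ece1, Ednra and Ednrb. WT mice (n = 6) carried Gch1 flox/flox without Cre, and cmGch1 KO mice (n = 6) carried Gch1 flox/flox with heterozygous Cre recombinase driven by the α-myosin heavy chain promoter, which is active in cardiomyocytes. Gch1 encodes GTP cyclohydrolase, the enzyme that begins the synthesis of tetrahydrobiopterin, and both groups had LoxP sites around the same exons. Each library was 1 animal, and since no Cre-only libraries were analysed here, Cre expression and loss of Gch1 cannot be told apart in these groups.

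Angiotensinogen, the product of Agt, is cut by renin and then by the converting enzyme encoded by Ace to give angiotensin II, which raises blood pressure and acts on the heart through the receptor encoded by Agtr1a. Angiotensin II also drives release of aldosterone, the ligand of the mineralocorticoid receptor encoded by Nr3c2. Endothelin is made as a longer precursor from Edn1, is cut to its active form by the enzyme encoded by Ece1, and acts on the receptors encoded by Ednra, which constricts vessels, and Ednrb, which also clears the peptide and releases nitric oxide from endothelium.

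The libraries held between 19921398 and 37917806 counts. Values are cpm, the counts of a gene relative to the library total after scaling by TMM factors, and the limit that 0 counts set, reckoned at 3 counts, lay between 0.0832 and 0.140 cpm by library and covers counting error only. Gch1 averaged 10.7 ± 0.979 cpm over the WT and 5.51 ± 0.859 cpm over the cmGch1 KO libraries (mean ± SD, n = 6 each), with a log2 fold change of -0.96 (SE 0.11, edgeR quasi-likelihood adjusted p = 6.88e-04), and the genotypes did not overlap. Replicates 2 and 3 of cmGch1 KO stood apart, with Xist at 87.1 and 99.6 cpm, no count of 4 Y-linked genes and mitochondrial shares of 14.9% and 16.1%, against Xist of at most 0.235 cpm and mitochondrial shares between 18.3% and 22.9% in the other 10 libraries. Those other 10 libraries all expressed the Y-linked genes, from 168 cpm in WT replicate 1 up to 193 cpm in WT replicate 5. By Xist and these genes, cmGch1 KO replicates 2 and 3 had a female pattern and the other 10 libraries a male pattern. No WT library had the female pattern, so sex-linked expression was not balanced between the genotypes. The labels give no sex, while the paper describes sex-matched mice. Cardiomyocyte markers, 10 genes with none at 0, summed to between 61059 and 70944 cpm over the 12 libraries, and markers of atrial muscle, 6 genes, to between 32.4 and 362 cpm.

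None of the 8 genes passed the test for a difference between cmGch1 KO and WT. In the fit over 11225 tested genes, 126 genes (1.12%) had an FDR under 0.05, of which 50 (0.445%) were lower and 76 (0.677%) higher in cmGch1 KO; with scaling by library size alone the split was 36 lower and 116 higher. All 8 genes passed the filter on low counts, and edgeR called 0 of them, as did DESeq2. At an unadjusted p under 0.05 edgeR again gave 0 of 8, against 11.5% of all tested genes, and in 0 of 8 were the libraries of the genotypes without overlap in cpm, against 1.87% of all tested genes. Of the 8 log2 fold changes, 2 were below 0 and 6 above, with a median of 0.08, against a median of -0.01 over all tested genes.

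**Figure D1:**
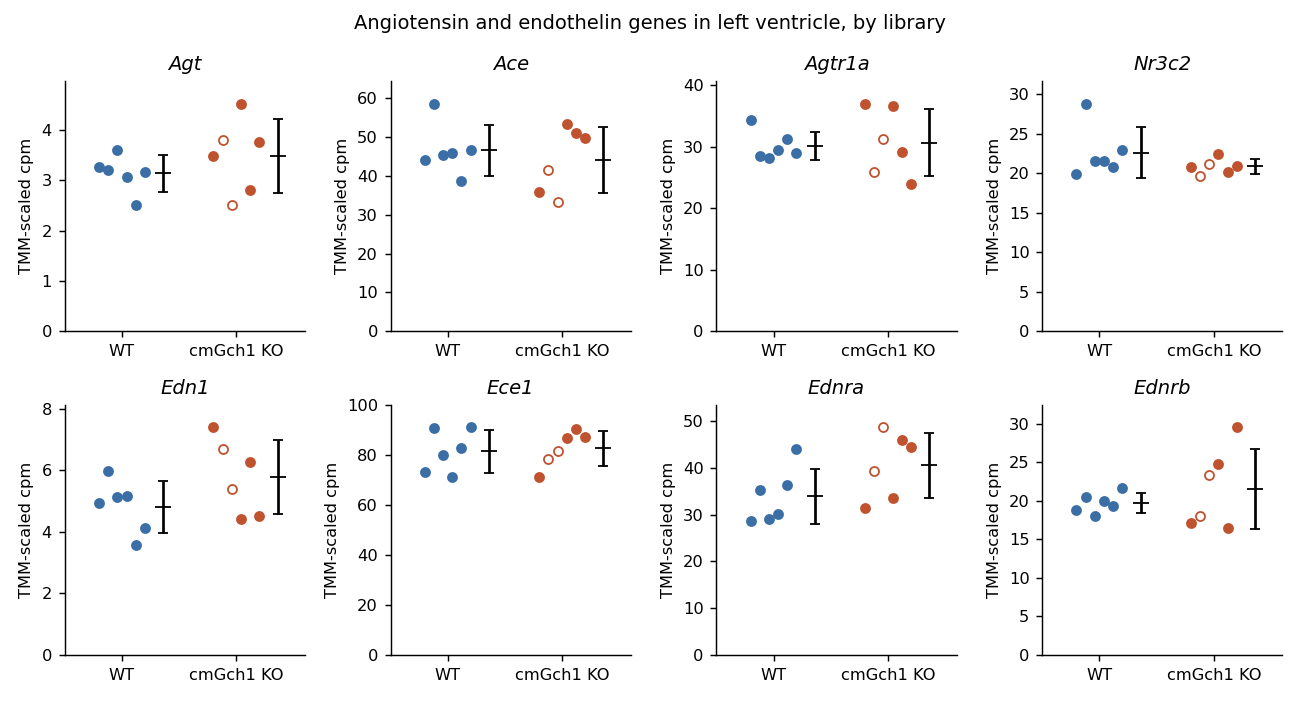
TMM-scaled cpm (vertical axes, from 0) of the 8 genes in each WT (blue) and cmGch1 KO (red) library, with the mean ± SD (n = 6) beside the points and cmGch1 KO replicates 2 and 3 as open circles. The genotypes overlap in every panel, and the Nr3c2 point at 28.8 cpm is WT replicate 2.

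Agt (chromosome 8, 124556534 to 124569706, minus strand, GRCm38), the precursor of all angiotensin peptides, had the lowest counts of the set, between 58 and 150 per library. In WT its lowest, median and highest levels were 2.51, 3.18 and 3.61 cpm, and in cmGch1 KO they were 2.51, 3.63 and 4.53 cpm. The highest level was in cmGch1 KO replicate 4, while WT replicate 5 and cmGch1 KO replicate 3 shared the bottom of the range. The means were 3.14 ± 0.359 and 3.49 ± 0.731 cpm, and the log2 fold change was 0.16 (SE 0.15, edgeR adjusted p = 0.779), or 0.07 without cmGch1 KO replicate 4.

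Ace (chromosome 11, 105967945 to 105989964, plus strand), which encodes the enzyme that makes angiotensin II and is known from endothelium, ran from 38.6 through a median of 45.6 to 58.6 cpm in WT. In cmGch1 KO it ran from 33.3 through a median of 45.6 to 53.4 cpm. WT replicate 2 was highest, and the cmGch1 KO libraries fell into 3 at or above 49.8 cpm (replicates 4 to 6) and 3 at or below 41.4 cpm (replicates 1 to 3). The log2 fold change was -0.08 (SE 0.13, edgeR adjusted p = 0.908), and it was 0.03 when replicates 2 and 3 of cmGch1 KO were left out. An antisense gene, Gm11651, shares 295 exon bases with Ace and had 0 cpm in every library.

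Agtr1a (chromosome 13, 30336441 to 30382867, plus strand), the main receptor of angiotensin II in the rodent heart, had WT levels of 28.1, 29.3 and 34.3 cpm (lowest, median, highest). The cmGch1 KO levels were 24.0, 30.2 and 37.0 cpm. Both the lowest library (replicate 6) and the highest (replicate 1) were cmGch1 KO, so that the WT range lay inside the cmGch1 KO range. The SD was 2.34 cpm among WT and 5.41 cpm among cmGch1 KO libraries, with a log2 fold change of 0.03 (SE 0.11, edgeR adjusted p = 0.971).

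Nr3c2 (chromosome 8, 76899442 to 77245012, plus strand), the aldosterone receptor, had WT levels of 19.9, 21.6 and 28.8 cpm and cmGch1 KO levels of 19.6, 20.9 and 22.5 cpm (lowest, median, highest). The upper end in WT was replicate 2 alone, and 1 of 6 cmGch1 KO libraries was above the WT median. The log2 fold change was -0.11 (SE 0.09, edgeR adjusted p = 0.713), and without WT replicate 2 it was -0.03 (edgeR adjusted p = 0.909). Nr3c2 lies 418018 bases from Ednra on the same chromosome and shares 247 exon bases with Gm10649 on the opposite strand, which reached at most 0.335 cpm.

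Edn1 (chromosome 13, 42301476 to 42307990, plus strand), the gene of the main endothelin peptide, had between 90 and 205 counts per library. Its WT levels were 3.59, 5.04 and 5.97 cpm and its cmGch1 KO levels 4.40, 5.84 and 7.40 cpm (lowest, median, highest). The 3 highest libraries were cmGch1 KO replicates 1, 2 and 5, and the 2 lowest were WT replicates 5 and 6, with the rest mixed. The means were 4.82 ± 0.843 and 5.78 ± 1.21 cpm, and the log2 fold change was 0.25 (SE 0.16, edgeR adjusted p = 0.612), with a two-sided exact permutation p of 0.147. It was 0.17 without cmGch1 KO replicate 1.

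Ece1 (chromosome 4, 137862237 to 137965229, plus strand), the endothelin-converting enzyme, ran from 71.0 through a median of 81.3 to 90.9 cpm in WT and from 71.3 through a median of 84.1 to 90.1 cpm in cmGch1 KO. The 2 ranges were nearly the same, with the lowest and the highest library both WT. Its log2 fold change was 0.02 (SE 0.08, edgeR adjusted p = 0.965), the smallest in size among the 8 genes.

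Ednra (chromosome 8, 77663031 to 77724464, minus strand), the constrictor receptor, had the largest log2 fold change of the 8 genes. Its WT levels were 28.6, 32.7 and 43.9 cpm and its cmGch1 KO levels 31.5, 41.9 and 48.6 cpm (lowest, median, highest). In cmGch1 KO 5 of 6 libraries were above the WT median, with replicate 3 highest, but WT replicate 6 reached into the upper cmGch1 KO values and cmGch1 KO replicates 1 and 4 into the WT values. The means were 33.9 ± 5.91 and 40.5 ± 6.98 cpm, and the log2 fold change of 0.26 (SE 0.13) did not pass the test (edgeR adjusted p = 0.483, two-sided exact permutation p = 0.102). On the opposite strand 4933431K23Rik, at 3.21 to 8.0 cpm, shares 91 exon bases with Ednra, and the strand setting of the counting was not given in the sources used here.

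Ednrb (chromosome 14, 103814625 to 103844402, minus strand), the clearing receptor, had WT levels of 18.0, 19.7 and 21.7 cpm and cmGch1 KO levels of 16.4, 20.8 and 29.5 cpm (lowest, median, highest). The WT libraries lay inside the range of the cmGch1 KO libraries, of which replicates 3, 4 and 6 were above every WT library and replicates 1 and 5 below every one. The SD was 1.30 cpm among WT and 5.20 cpm among cmGch1 KO libraries. Its log2 fold change was 0.13 (SE 0.13, edgeR adjusted p = 0.81), and it was 0.01 without cmGch1 KO replicate 6.

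The intervals of the differences show which changes remain possible at this spread. The 95% interval of the fold of cmGch1 KO to WT ran from 0.90 to 1.15 for Ece1, from 0.87 to 1.19 for Agtr1a, from 0.78 to 1.15 for Ace and from 0.81 to 1.05 for Nr3c2. It was wider for Agt and Edn1, which had the fewest counts, from 0.90 to 1.39 and from 0.94 to 1.503. For the receptors of endothelin it ran from 0.99 to 1.45 for Ednra and from 0.90 to 1.33 for Ednrb. In bulk tissue, fewer cells of a type and less RNA per cell cannot be told apart in any of these values.

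**Figure D2:**
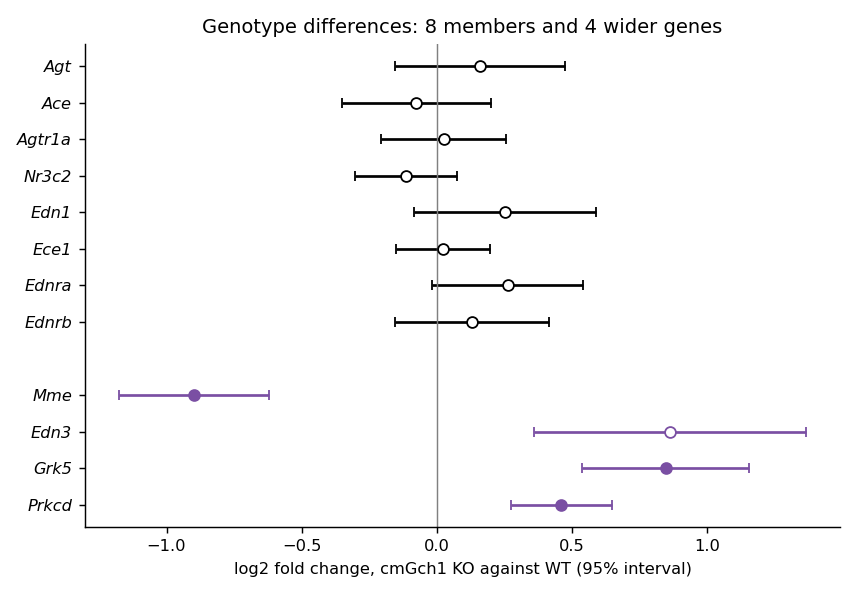
Genotype difference as log2 fold change, cmGch1 KO over WT (horizontal axis), with its 95% interval from the edgeR fit, for the 8 genes (black) and 4 genes of wider lists (purple), filled where the FDR was under 0.05. The intervals of all 8 genes cross 0, with Ednra at 0.26 nearest to excluding it, and Mme at -0.90 lies farthest to the left.

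Per length of exon, the 8 genes spanned from 15.5 cpm per kb for Ece1 to 1.75 cpm per kb for Agt, as means over the 12 libraries. Between them lay Agtr1a at 10.9, Ace at 8.57, Ednra at 6.79, Ednrb at 4.84, Nr3c2 at 3.36 and Edn1 at 2.48 cpm per kb. By these means Ace and Agtr1a were above Agt, and Ece1, Ednra and Ednrb above Edn1. Nr3c2, the receptor of a steroid, was above Edn1 in 10 of 12 libraries. The length counts all annotated exons of a gene, whether or not they are used in the heart. Ece1 and its neighbour in this order, Agtr1a, did not overlap over the libraries, while every other pair of neighbours overlapped. Within a library the order held more often: Ednra was above Ednrb, and Ednrb above Nr3c2, in 12 of 12 libraries, and Agtr1a was above Ace in 10 of 12.

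**Figure D3:**
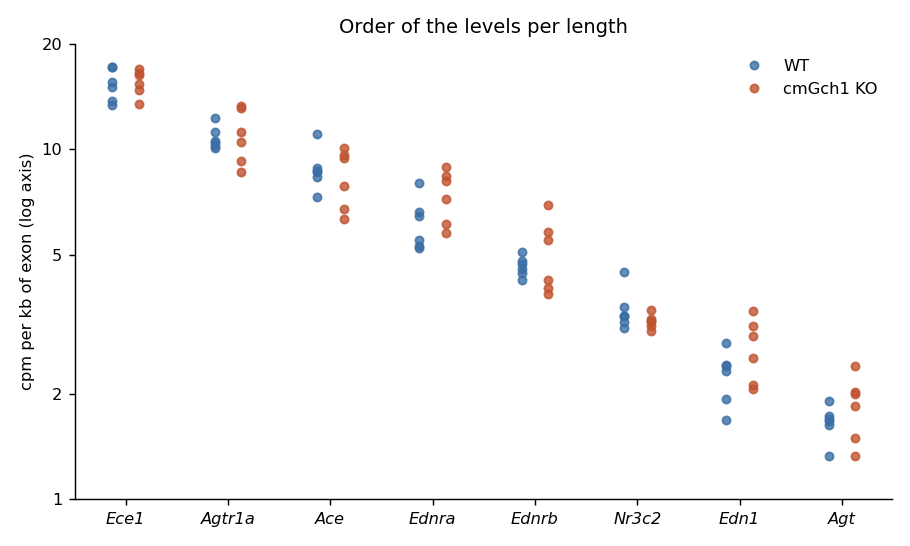
Level of each gene in cpm per kb of exon (vertical log axis) in the WT (blue) and cmGch1 KO (red) libraries, 6 points each, ordered by the mean. The order falls from Ece1 at 15.5 to Agt at 1.75 cpm per kb, and the genotypes overlap at every gene.

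Ratios between paired genes overlapped between the genotypes, and neither of the 2 tested passed its test. The log2 ratio of Ednra to Ednrb counts was 0.76 ± 0.17 in WT and 0.93 ± 0.38 in cmGch1 KO (n = 6 each, two-sided exact permutation p = 0.372, adjusted p = 0.558 over the 2 ratios). This difference of 0.16 was 0.08 without cmGch1 KO replicates 2 and 3, 0.05 without replicate 5 and 0.26 without replicate 4. The log2 ratio of Nr3c2 to Nr3c1, the glucocorticoid receptor, was -2.03 ± 0.24 and -2.10 ± 0.17 (exact permutation p = 0.558, adjusted p = 0.558).

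Among the other genes of the angiotensin system, Mme was lower in cmGch1 KO and was the 1 gene to pass the test. This list of 17 genes had 10 tested, of which 2 were lower and 8 higher in cmGch1 KO, with a median log2 fold change of 0.06. Over all tested genes 1.12% passed the test. At an edgeR unadjusted p under 0.05, 2 genes of the list were lower and 2 higher, against 11.5% of all tested genes in both directions. The list was chosen with earlier results of these data known, so no excess can be read from it. Mme encodes neprilysin, a membrane peptidase that cleaves angiotensin, natriuretic peptides and endothelin. Its levels were 12.03, 12.2 and 13.03 cpm in WT and 4.76, 6.70 and 8.84 cpm in cmGch1 KO (lowest, median, highest). The genotypes did not overlap, with replicates 2 and 3 of cmGch1 KO the lowest. The means were 12.4 ± 0.463 and 6.61 ± 1.51 cpm, a log2 fold change of -0.90 (SE 0.13, edgeR adjusted p = 0.00296), or 53.6% of WT. Without those replicates it was -0.74 (edgeR adjusted p = 0.00578), and Mme passed the test in 23 of 23 alternative fits.

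The remaining peptidases of the angiotensin list did not pass the test. Enpep, which trims angiotensin II at its amino end, averaged 11.7 ± 1.68 cpm in WT against 9.87 ± 0.641 cpm in cmGch1 KO (log2 fold change -0.25, edgeR adjusted p = 0.322). Prcp and Ctsa, carboxypeptidases that act on angiotensin, had log2 fold changes of 0.23 and 0.15 (edgeR adjusted p = 0.382 and 0.424). Several genes were at or near the floor: Ren1, which encodes renin, had at most 2 counts in a library and 0 in 11 of 12, Agtr1b at most 1 count, and Agtr2, the second angiotensin receptor type, 0 in all 12. The mast cell proteases Cma1 and Mcpt4, which can also form or degrade angiotensin, had 5 to 35 and 8 to 43 counts, and the 6 mast cell markers, which include both, summed to 7.46 to 9.56 cpm in WT and 8.18 to 11.1 cpm in cmGch1 KO.

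A list of 6 further genes held endothelin peptides, converting enzymes and their relatives, and also Npr3, the clearance receptor of natriuretic peptides, which is not an endothelin gene. Of these 6 genes 3 were tested, all with log2 fold changes above 0. By edgeR 0 passed the test, and 1 was at an unadjusted p under 0.05, against 11.5% of all tested genes. That gene was Edn3, a further endothelin peptide that binds mainly the receptor encoded by Ednrb. Its levels were 1.53, 2.10 and 4.27 cpm in WT and 2.69, 4.46 and 5.77 cpm in cmGch1 KO (lowest, median, highest). WT replicate 1 lay among the cmGch1 KO libraries, and the other WT libraries were below all 6 of them. Of the WT libraries only replicate 1 exceeded the 3 cpm of the filter, so Edn3 was tested because of its cmGch1 KO levels. Its direction and p are thus not independent of the filter. The log2 fold change was 0.86 (SE 0.23, edgeR adjusted p = 0.118), while DESeq2 gave 0.87 with an adjusted p of 0.0152. By edgeR it also passed with the replicate block (0.91, adjusted p = 0.0438) and with 1 surrogate variable (0.88, adjusted p = 0.0244). The replicate numbers were not taken as pairs. With DESeq2 these were 3 of the 15 alternative fits that tested Edn3. With a covariate for sex-linked expression its log2 fold change was 0.77 (edgeR adjusted p = 0.416). In the 6 fits that left out 1 library and tested Edn3, 0 passed (edgeR adjusted p = 0.0637 to 0.251). Without cmGch1 KO replicates 2 and 3 Edn3 did not pass the filter on low counts and was not tested. Ece2, a relative of Ece1, and Npr3 had log2 fold changes of 0.09 and 0.16 (edgeR adjusted p = 0.894 and 0.738), the latter being the median of the 3, and Edn2, Ecel1 and Kel had at most 2 counts in a library.

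**Figure D4:**
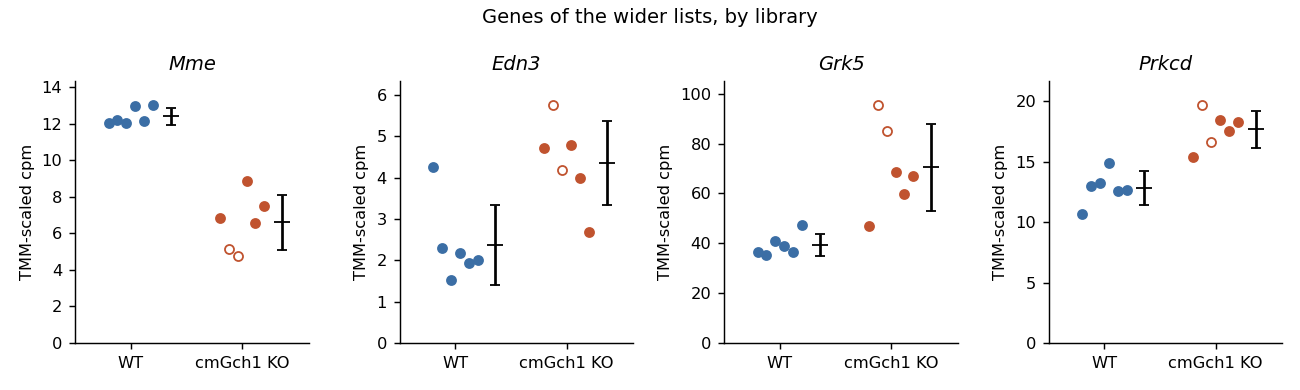
TMM-scaled cpm (vertical axes, from 0) of Mme, Edn3, Grk5 and Prkcd in each library, drawn as for the 8 genes, with mean ± SD (n = 6) and cmGch1 KO replicates 2 and 3 open. Mme falls from 12.4 to 6.61 cpm with no overlap, and the 2 open circles are the highest Grk5 values.

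Angiotensin and endothelin receptors signal through Gq proteins, phospholipase C and protein kinase C, and are switched off by receptor kinases, arrestins and RGS proteins. Of 22 such genes 21 were tested, 11 lower and 10 higher, with a median log2 fold change of -0.03, and 2 passed the test, both higher in cmGch1 KO, against 0.677% higher among all tested genes. At an edgeR unadjusted p under 0.05, 1 gene of the list was lower and 2 higher, against 11.5% of all tested genes in both directions. This list was chosen with earlier results of these data known, so the comparison with all tested genes is no test of it. Grk5, a kinase that desensitises G protein-coupled receptors, was at 35.3, 37.8 and 47.5 cpm in WT and 47.1, 67.8 and 95.6 cpm in cmGch1 KO (lowest, median, highest). WT replicate 6 and cmGch1 KO replicate 1 overlapped, and cmGch1 KO replicates 2 and 3 were highest. Its log2 fold change was 0.85 (SE 0.14, edgeR adjusted p = 0.0094), and without those replicates it was 0.63 (edgeR adjusted p = 0.0542).

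Prkcd, a protein kinase C isoform activated by diacylglycerol, was at 10.7, 12.8 and 14.9 cpm in WT and 15.4, 17.9 and 19.7 cpm in cmGch1 KO (lowest, median, highest). All cmGch1 KO libraries were above all WT libraries. Its log2 fold change was 0.46 (SE 0.09, edgeR adjusted p = 0.0171). The call was lost without cmGch1 KO replicates 2 and 3 (0.44, edgeR adjusted p = 0.102), without replicate 2 alone (0.42, edgeR adjusted p = 0.0514) or without WT replicate 5 (0.45, edgeR adjusted p = 0.0547), or once sex-linked expression entered the fit (0.44, edgeR adjusted p = 0.0769). Gnaq, which encodes the Gq subunit itself, had a log2 fold change of -0.03 (edgeR adjusted p = 0.969), and Plcb1 and Prkce had 0.29 and -0.29 (edgeR adjusted p = 0.544 and 0.438), the latter -0.16 without cmGch1 KO replicates 2 and 3. Gna12, a G protein subunit of a related class, averaged 164.8 ± 5.27 cpm in WT against 144.2 ± 11.4 cpm in cmGch1 KO (log2 fold change -0.19, edgeR adjusted p = 0.191), and passed under DESeq2.

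Genes that handle corticosteroids and genes known to respond to their receptors had no member past the edgeR test. In the handling list 10 of 12 genes were in the table and 8 were tested, 6 lower and 2 higher. By edgeR 1 of the 8 was at an unadjusted p under 0.05, against 11.5% of all tested genes. That was Fkbp4, a chaperone of steroid receptors, with means of 541 ± 49.8 and 448 ± 25.4 cpm in WT and cmGch1 KO (log2 fold change -0.27, SE 0.07, edgeR adjusted p = 0.104), which passed under DESeq2 (adjusted p = 0.00607). Nr3c1 was at 92.8 ± 16.0 and 89.8 ± 10.4 cpm, and Hsd11b1, which regenerates active glucocorticoid, at 13.7 ± 3.08 and 10.2 ± 3.16 cpm (log2 fold change -0.42, edgeR adjusted p = 0.437). Hsd11b1 was lowest in cmGch1 KO replicates 2 and 3, and its log2 fold change was -0.20 without them. Hsd11b2, which shields the mineralocorticoid receptor from glucocorticoid in kidney, had at most 7 counts.

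Of 12 genes known to respond to corticosteroid receptors 10 were tested, 8 lower and 2 higher, with a median log2 fold change of -0.44. By edgeR 0 passed, as by DESeq2 and limma, and 3 were at an unadjusted p under 0.05 by edgeR, all lower: Ddit4 (-0.80, edgeR adjusted p = 0.345), Errfi1 (-0.48, edgeR adjusted p = 0.376) and Dusp1 (-0.47, edgeR adjusted p = 0.267). Over all tested genes 4.51% were lower at that threshold. Ddit4 was -0.43 without WT replicate 6 (edgeR unadjusted p = 0.117) and Errfi1 -0.32 without WT replicate 1 (edgeR unadjusted p = 0.109). Without cmGch1 KO replicates 2 and 3 they were -0.64 and -0.41 (edgeR unadjusted p = 0.127 and 0.125). These genes spread widely within a genotype. Zbtb16 ran from 20.2 to 127.7 cpm in WT and from 14.8 to 127.6 cpm in cmGch1 KO, and Per1, a clock gene, from 16.9 to 58.5 cpm and from 9.57 to 60.3 cpm. The highest Zbtb16 library was replicate 6 in both genotypes. Over all 5 lists together, 52 of 69 genes were tested, 3 passed the test (1 lower, 2 higher), against 1.12% of all tested genes, and 2, Mme and Prkcd, did not overlap between genotypes, against 1.87%. The lists were chosen with earlier results of these data known, so no excess over these shares can be read from them.

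**Figure D5:**
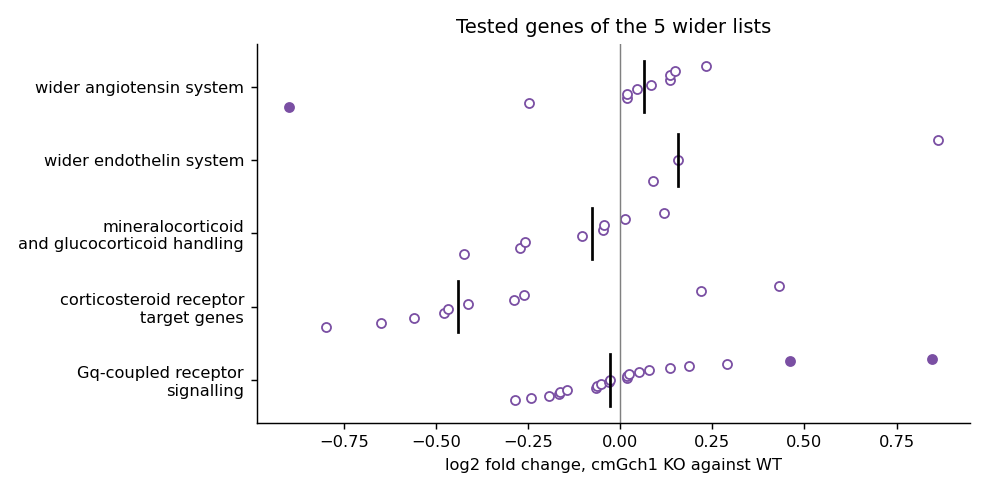
Genotype difference as log2 fold change, cmGch1 KO over WT (horizontal axis), of each tested gene in the 5 wider lists, with the median of each list as a black bar and genes with an FDR under 0.05 filled. The filled points are Mme at -0.90, Prkcd at 0.46 and Grk5 at 0.85, and the medians run from -0.44 for corticosteroid receptor targets to 0.16 for the endothelin list, which is the value of Npr3.

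Markers of the cell types that carry these systems were measured beside them. The 12 endothelial markers, 6 lower and 6 higher, summed to 1374 to 1587 cpm in WT and 1314 to 1513 cpm in cmGch1 KO (two-sided exact permutation p = 0.307, adjusted p = 0.45 over 13 lists). The 10 fibroblast markers were all higher, with 0 past the edgeR test, and summed to 1765 to 2434 and 2034 to 2654 cpm (exact permutation, adjusted p = 0.295). The 7 smooth muscle markers, 6 lower and 1 higher with a median log2 fold change of -0.21, summed to 398 to 459 and 387 to 486 cpm (exact permutation, adjusted p = 0.315); the 1 higher marker, Acta2, passed the edgeR test. The 8 pericyte markers summed to 1035 to 1205 and 1022 to 1151 cpm (exact permutation, adjusted p = 0.45). The 10 cardiomyocyte markers, 8 lower and 2 higher with a median log2 fold change of -0.16, had 0 past the edgeR test. Their sum was 67106 to 70944 cpm in WT and 61059 to 64434 cpm in cmGch1 KO without overlap (exact permutation p = 0.00216, the smallest possible, adjusted p = 0.0281). That adjusted p was 0.127 with scaling by library size alone and 0.0619 without cmGch1 KO replicates 2 and 3. The 5 nerve and glia markers, of which 2 were tested and Ncam1 passed, summed to 8.06 to 10.2 and 10.01 to 13.2 cpm (exact permutation, adjusted p = 0.0281, and 0.0619 without those replicates). None of these markers was at 0 in all libraries, and the part of any cell type in the values of Mme, Grk5 and Prkcd was not tested.

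The remaining marker lists did not pass the test for a difference between genotypes. Macrophage markers, 9 of 10 higher, summed to 270 to 411 cpm in WT and 350 to 483 cpm in cmGch1 KO (exact permutation, adjusted p = 0.291). Haemoglobin and other blood genes, 5 of 5 lower, summed to 393 to 1153 and 431 to 926 cpm (exact permutation, adjusted p = 0.346). The lists for atrial muscle, lymphatic endothelium, epicardium, adipocytes and mast cells had adjusted p values between 0.346 and 0.892 by the same exact permutation test.

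With the genotype means removed, the genes whose log2 cpm most resembled each of the 8 over the 12 libraries had Pearson r between 0.822 and 0.973. This describes libraries that differ in depth and composition, and whether these top r values exceed chance was not tested. Ece1 was most like Dicer1 (0.973), Uggt1 (0.972) and Gnaq (0.972), and Ednra most like Eif4ebp2 (0.971), Rad23b (0.962) and Sept8 (0.949). Ace was most like Lrp1 (0.910), Agtr1a like Dars (0.915), Agt like Shf (0.911), Edn1 like Kdelr3 (0.891), Nr3c2 like Col4a4 (0.879) and Ednrb like Atl2 (0.878). Among the 8 genes themselves r was highest between Ednra and Ece1 (0.691) and lowest between Edn1 and Ednrb (-0.684).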

How the data were processed

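RNA-seq of left ventricle was analysed in 6 WT and 6 cmGch1 KO mice, grouped by the genotype label. Per the labels and the methods, the authors made stranded paired-end libraries, aligned them with HISAT2 to GRCm38 and counted reads with featureCounts; the annotation release and strand setting are not given in the sources used here. The authors deposited raw counts per Ensembl gene, and a second table of normalized values on a log2 scale, made with a tool not given in the sources used here, which was used as an alternative only. Of 26921 genes, 26545 (98.6%) were found in GENCODE M21, which gave symbols, coordinates and exon lengths.

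Counts were fitted with edgeR 4.0.16 in R 4.3.3 (TMM, cpm over 3 in at least 6 libraries, quasi-likelihood test on genotype, Benjamini-Hochberg FDR under 0.05 over 11225 genes). The step was tested on simulated data. Exact permutation tests used all 924 splits, two-sided, with a smallest p of 0.00216. The alternatives were DESeq2 1.42.0, limma 3.58.1 on the deposited log2 values, other scalings and filters, covariates (a surrogate variable came from sva 3.50.0), and libraries left out.

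Named genes were the 8 genes, Gch1, genes of the wider lists with an FDR under 0.05, up to 4 of each list with the largest log2 fold change, Nr3c1, and the 3 genes most alike to each of the 8. Other genes of the lists that are named were chosen for their role or counts after their values were seen. The genes and lists were chosen with earlier results of these data known. Totals of 19921398 to 37917806 counts per library limit the precision of genes such as Agt and Edn1. A further gene of the wider lists, and the ratio formed with it, are not reported here. Same-numbered libraries did not all deviate together (r from -0.128 to 0.676), and the replicate numbers were not taken as pairs. WT replicates 1, 5 and 6 were most like the cmGch1 KO library of their own number (r = 0.676, 0.401 and 0.509). Whether the numbers mark a shared batch was not tested.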

Additional observations from a re-analysis of the deposited data

Results flagged for a closer look

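Of 86 groups of 6 values examined, 7 held a library whose gap to its nearest neighbour exceeded Dixon's 95% critical value for the group's range, and chance alone flags about 1 in 20 such groups. Among the 8 genes this was Nr3c2 in WT replicate 2, at 28.8 cpm against 22.9 cpm in the next WT library. Among genes of the wider lists it was Edn3 in WT replicate 1, at 4.27 cpm against 2.30 cpm, and Zbtb16 in cmGch1 KO replicate 6, at 127.6 cpm against 32.5 cpm. Zbtb16 was also highest among WT in the library of that number, WT replicate 6, at 127.7 cpm. WT replicate 4 stood apart in the summed cardiomyocyte markers, at 70944 cpm against 68203 cpm, and in the summed epicardial and mesothelial markers, at 12.6 cpm against 6.88 cpm. The summed lymphatic endothelial markers were at 124.3 cpm in cmGch1 KO replicate 5 against 117.3 cpm in the next library. The summed blood markers were at 926 cpm in cmGch1 KO replicate 1 against 570.3 cpm.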

How the results depend on the processing

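None of the 8 genes passed the test in any of the 23 alternative fits that tested it (22 for Agt, which the filter of cpm over 3 in every library removed), with adjusted p no lower than 0.114 (Ednra, with 1 surrogate variable), and the log2 fold change of Ednra ran from 0.19 to 0.35. In some of these fits Ednra was at an edgeR unadjusted p under 0.05, such as 0.0128 with 1 surrogate variable and 0.0197 with the replicate block. Without cmGch1 KO replicates 2 and 3 the log2 fold change of Ednra was 0.20 (edgeR unadjusted p = 0.204). The counts of lower and higher genes were 155 and 218 with DESeq2, 331 and 305 with a surrogate variable, 24 and 38 with a covariate for sex-linked expression and 18 and 16 without cmGch1 KO replicates 2 and 3; scaling by library size gave 116 higher. Leaving out each library gave 28 to 96 lower and 44 to 111 higher genes; lower genes fell to 28, 33 and 29 without WT replicates 3, 4 and 5 and rose to 96 without cmGch1 KO replicate 1, and higher genes fell to 44 without WT replicate 3, WT replicate 5 or cmGch1 KO replicate 3. The replicate block gave 76 lower genes and 4 of the wider lists, adding Edn3 (0.91, edgeR adjusted p = 0.0438), and 3 of 6 WT libraries correlated best with their own number. Of the wider lists, 6 genes passed with DESeq2, 6 with a surrogate variable and 1 without cmGch1 KO replicates 2 and 3. The cause of these shifts was not tested. Directions reversed for values near 0. The log2 fold change of Ace was 0.0273 with that covariate and 0.0272 without cmGch1 KO replicates 2 and 3, and that of Nr3c1 was 0.0247 with library size, 0.00624 with the covariate and 0.00744 without those replicates. Leaving out single libraries gave -0.138 to 0.000815 for Ace, -0.0353 to 0.083 for Agtr1a, -0.0145 to 0.0608 for Ece1, -0.102 to 0.00572 for Nr3c1 and -0.039 to 0.23 for Hsp90aa1. With library size, the summed endothelial and pericyte markers differed by 27.6 and 17.1 cpm and the cardiomyocyte markers by -2099.6 cpm. Without cmGch1 KO replicates 2 and 3, cardiomyocyte markers differed by -5008 cpm and nerve and glia markers by 2.39 cpm, each no longer past the threshold. Leaving out single libraries, the summed markers ranged from -1.78 to 6.55 cpm for lymphatic endothelium, -1.37 to 0.40 cpm for epicardium, -15.9 to 50.1 cpm for atrial muscle and -0.582 to 0.0689 cpm for adipocytes.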
